A study of Rattus norvegicus with 179 samples.

Results

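The liver response to the unmodified probiotic Lactobacillus paracasei (LP) was compared with that to buffer (CON) in aged male rats, over 22 liver libraries of the 179 in the series. Members were all liver libraries labelled unmodified probiotic or control, 10 LP and 12 CON, except 1 LP library that did not read as liver. LP was compared with CON with activity as a covariate, and then within each activity. The rats were of the F344BN hybrid strain and 24 mo old when obtained. They were gavaged 3 times/wk for 12 wk. LPSed (n = 6) received the probiotic and no exercise, and LPEx (n = 4) received the probiotic and exercised on a treadmill at 12 cm/s on 5 days/wk. CONSed (n = 6) and CONEx (n = 6) received an equal volume of buffer, without and with that exercise. Sedentary rats were placed on a stationary treadmill for 10 min/day. Each library came from 1 rat, and only males were used.

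The liver receives blood from the gut through the portal vein, so bacterial products and metabolites that cross the gut wall reach hepatocytes and the resident macrophages (Kupffer cells) first. Hepatocytes make most plasma proteins and bile acids and set lipid and glucose output, and bile acids in turn return from the gut to the liver. Lactic acid bacteria such as L. paracasei live in the gut lumen and are given as probiotics. Bulk counts cannot tell fewer cells of a type from less RNA per cell.

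Libraries held 14555229 to 24146291 counts in total. The LP libraries were shallower, at 1.665e+07 ± 1.11e+06 counts in LP (SD, n = 10), against 1.93e+07 ± 2.64e+06 in CON (SD, n = 12; two-sided exact permutation test of library labels within activity, p = 0.00887, Benjamini-Hochberg adjusted p = 0.0266 over 3 measures). The number of genes with a count (p = 0.471 in the same exact permutation test) and the share of counts taken by the 10 highest genes (p = 0.813) did not pass that test. Thinning every library to the smallest total left the count of DEGs as it was in each of the 4 comparisons below. Genes are given by Ensembl ID because 0 of the 32545 IDs in the table could be paired with a symbol.

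To check the labelled tissue, genes enriched in a tissue were listed from the libraries of this series. Their median there had to be 20 CPM or more and exceed that of each other tissue by 10-fold or more. The liver libraries compared here were among those that set the medians. Their high liver shares thus follow in part from the choice of genes and are not an independent check of the labels. A library unlike the rest of its labelled tissue could still be seen. The 391 liver-enriched genes took 42.9% to 47.4% of the counts in LPSed, 43.6% to 47.2% in LPEx, 41.0% to 48.2% in CONSed and 42.9% to 50.4% in CONEx. Muscle-enriched genes took at most 0.0762% in any of these libraries. In the left-out library, labelled LPEx rat 4, liver-enriched genes took 0.0908% of the counts (95% exact binomial interval 0.0894% to 0.0922%, counting error only) and muscle-enriched genes took 36.5%. It therefore held a muscle profile and not a liver one.

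No gene separated LP livers from CON livers. Of 13599 genes tested with activity as a covariate, 0 were DEGs (0% of genes; edgeR quasi-likelihood test, FDR < 0.10 and absolute log2 fold change > 1), and the lowest FDR was 0.997. At an unadjusted p under 0.05 there were 258 genes with a higher level in LP (1.9% of all genes tested) and 229 with a lower one (1.68%), fewer in all than the 5% that an even spread of p-values gives. The median log2 fold change over all genes was -0.00 and the median absolute value was 0.09. The count of DEGs was also 0 under limma voom, and 1 under DESeq2, ENSRNOG00000023386, which was lower in LP with a log2 fold change of -4.85 and an FDR of 0.0910. That gene lay outside the rule for named genes and was chosen after its values were seen.

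**Figure D1:**
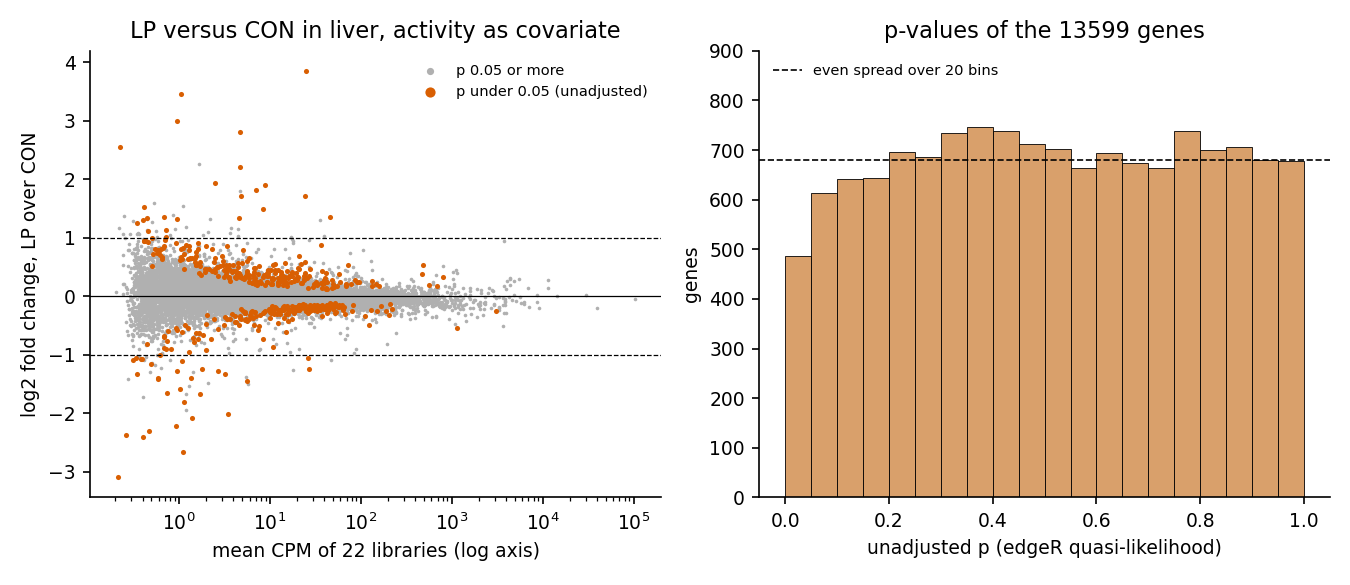
Left, log2 fold change of LP over CON (y axis) against the mean CPM of the 22 libraries (x axis, log scale) for 13599 genes, with dashed lines at 1 and -1. Right, the unadjusted p-values in 20 bins, with a dashed line at the 680 genes per bin of an even spread. The lowest bin held 487 genes, below that line, and genes past the dashed lines on the left lay mostly at low CPM.

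The precision of this comparison could be read from the intervals of the fold changes. The 95% interval lay within a log2 fold change of -1 to 1 for 11892 of 13596 genes with an interval (87.5%), and its median half-width was 0.28. This depended on the level. A 2-fold change was outside the interval for 98.2% of the genes at 10 to 100 CPM, for 89.6% at 1 to 10 CPM and for 35.4% under 1 CPM. The 105 genes with an absolute log2 fold change > 1, of which 56 were higher in LP and 49 lower, included 56 genes under 1 CPM, 39 at 1 to 10 CPM, 10 at 10 to 100 CPM and 0 above 100 CPM. Thus no change beyond 2-fold passed the edgeR test at any level, and the data said little on genes under 1 CPM.

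Among genes with a higher level in LP, the smallest p belonged to a gene that was high in some LP rats and not in others. ENSRNOG00000057009 was at 2.11, 16.9, 1.18, 7.63, 17.6 and 1.79 CPM in LPSed (rats 4, 5, 7, 8, 10 and 13) and at 3.13, 18.6, 1.81 and 8.21 CPM in LPEx (rats 6, 8, 10 and 11), against 1.33 to 4.73 CPM in CONSed (median 1.99) and 1.5 to 3.02 CPM in CONEx (median 2.14). In each LP group some rats were well above every CON rat and others were at the CON level, so the groups overlapped. The log2 fold change was 1.72 (SE 0.43, FDR = 0.997 in the edgeR fit), with 1.62 without exercise and 1.85 with it. In the other tissues the log2 fold change of LP over CON for the same gene was 0.22 in the colon, -0.15 in the muscle, 1.31 in the prefrontal cortex and 0.51 in the hippocampus, and it passed in none of them. High levels were not limited to LP rats there. The gene reached 12.2 CPM in CONEx colon, 12.3 CPM in CONSed muscle, 7.58 CPM in CONSed prefrontal cortex and 10.9 CPM in CONEx hippocampus. In livers with the Ang (1-7)-expressing probiotic and exercise it reached 15.9 CPM (median 2.17).

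ENSRNOG00000013973 had the highest fold change of the named genes in LP over CON, 3.85 on the log2 scale (SE 0.97, FDR = 0.997 in the edgeR fit). LPSed rat 7 had 274 CPM and the other LPSed rats 0.983 to 4.16 CPM. LPEx rat 6 had 209 CPM, against 4.53, 6.17 and 1.95 CPM in LPEx rats 8, 10 and 11. CONSed had 1.10 to 16.8 CPM and CONEx 0.574 to 4.25 CPM. The difference was thus carried by 1 rat in each LP group, and the LP medians of 2.80 CPM in LPSed and 5.35 CPM in LPEx stood beside CON medians of 2.19 CPM in CONSed and 2.63 CPM in CONEx.

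Among genes with a lower level in LP, the smallest p-values belonged to a gene near the limit of detection and a steadily expressed one. ENSRNOG00000021881 was the steady one, at 34.1 to 40.6 CPM in LPSed (median 35.8) and 32.0 to 38.2 CPM in LPEx (median 35.1), against 37.7 to 46.1 CPM in CONSed (median 42.0) and 37.4 to 44.6 CPM in CONEx (median 41.9). Its log2 fold change was small and alike in both activities, -0.21 (SE 0.06, FDR = 0.997 in the edgeR fit), and the LP and CON ranges overlapped. ENSRNOG00000001756 was near the limit of detection, with 0 counts in 7 of 10 LP libraries and at most 4 in the others, against 0 to 18 counts in CON libraries. It had at most 0.0562 CPM in LPSed and 0.198 CPM in LPEx, against 0 to 0.735 CPM in CONSed and 0.197 to 1.16 CPM in CONEx, and its fitted log2 fold change of -3.09 (SE 0.81, FDR = 0.997) depended on how such low counts were treated.

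**Figure D2:**
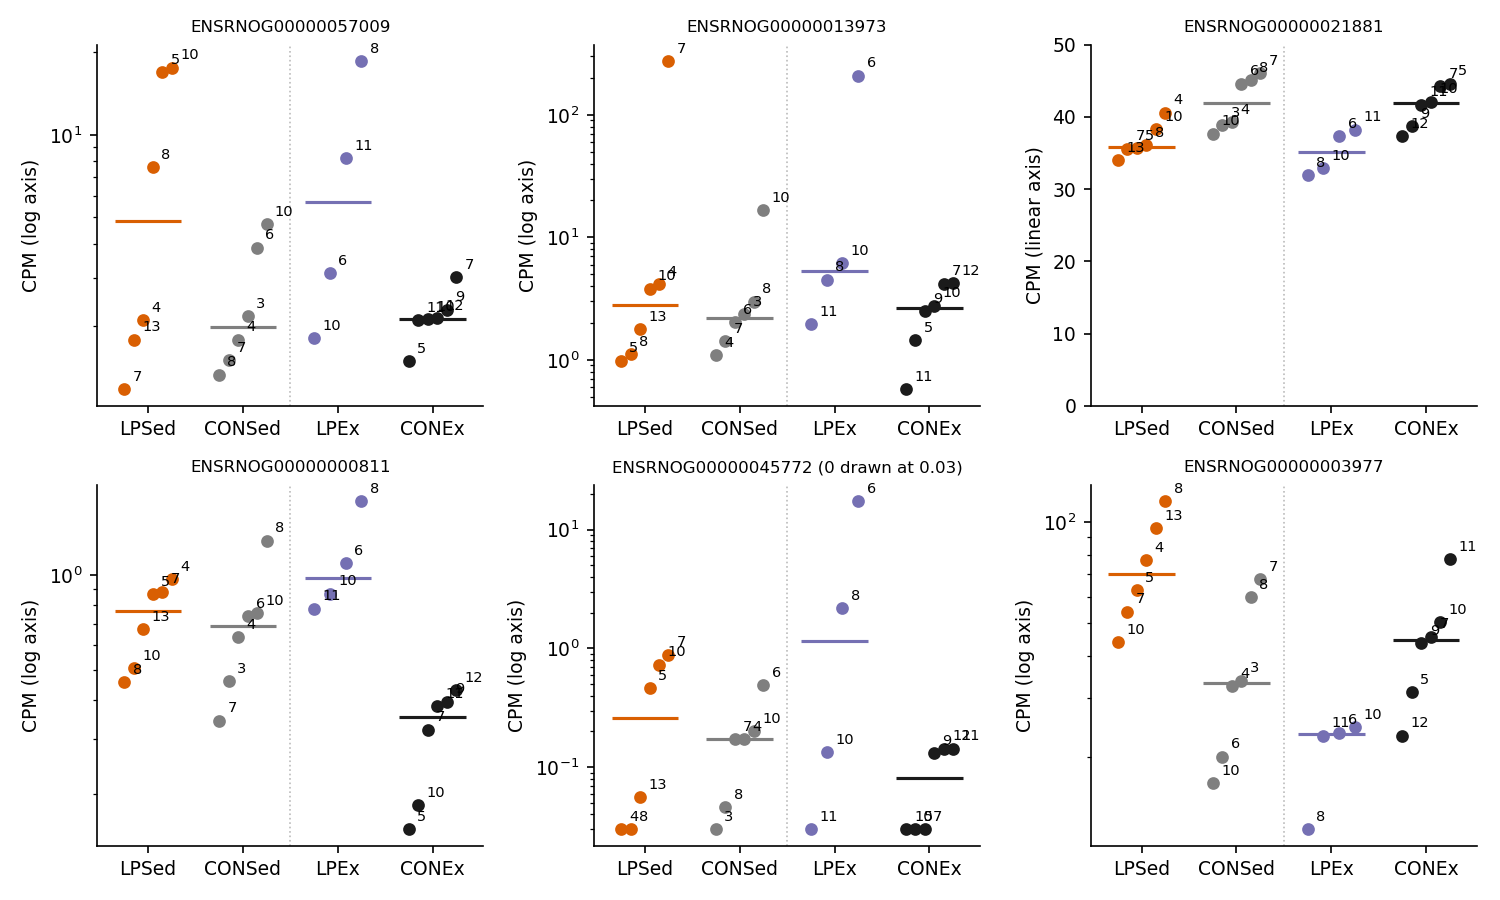
CPM of 6 named genes in each liver library, by group (numbers are rats, lines are medians; log axes except ENSRNOG00000021881). ENSRNOG00000057009 and ENSRNOG00000013973 were high in some LP rats only, ENSRNOG00000021881 lay slightly lower in both LP groups, and ENSRNOG00000045772 was high in LPEx rats 6 and 8.

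Without exercise, LPSed livers differed from CONSed livers at 1 gene of 13599. ENSRNOG00000048864, described by the study as lacking annotation, was lower in LPSed (0.00735% of genes were lower DEGs and 0% were higher DEGs). It was at 0.918, 0.405, 2.21, 0.587, 0.787 and 1.12 CPM in LPSed (rats 4, 5, 7, 8, 10 and 13), against 15.3, 8.25, 15.2, 4.68, 0.919 and 9.27 CPM in CONSed (rats 3, 4, 6, 7, 8 and 10). All 6 LPSed rats were low, and 5 of 6 CONSed rats were above every LPSed rat, while CONSed rat 8 was at the LPSed level. The mean was 1.00 ± 0.64 CPM in LPSed and 8.94 ± 5.70 CPM in CONSed (SD, n = 6 each), with a log2 fold change of -3.16 (SE 0.54, FDR = 0.0771 in the edgeR fit).

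ENSRNOG00000048864 was higher in most CONSed livers than in any LPSed, LPEx or CONEx liver. With exercise it was at 0.645, 1.21, 1.88 and 2.74 CPM in LPEx (rats 6, 8, 10 and 11), against 0.191 to 1.15 CPM in CONEx (median 0.865), with a log2 fold change of 0.99 (SE 0.59, FDR = 0.770 in the edgeR fit). In livers of rats given the Ang (1-7)-expressing probiotic it ranged from 0.648 to 16.9 CPM without exercise (median 2.41) and from 0 to 1.71 CPM with exercise (median 0.959, 5 rats, without the left-out rat 7). In colon, muscle, prefrontal cortex and hippocampus it had at most 1.13 CPM in any LP or CON library and did not pass the filter on low counts. High levels were therefore seen in liver, in rats that did not exercise. They were found in most CONSed rats, and the level reached 16.9 CPM with the Ang (1-7)-expressing probiotic.

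**Figure D3:**
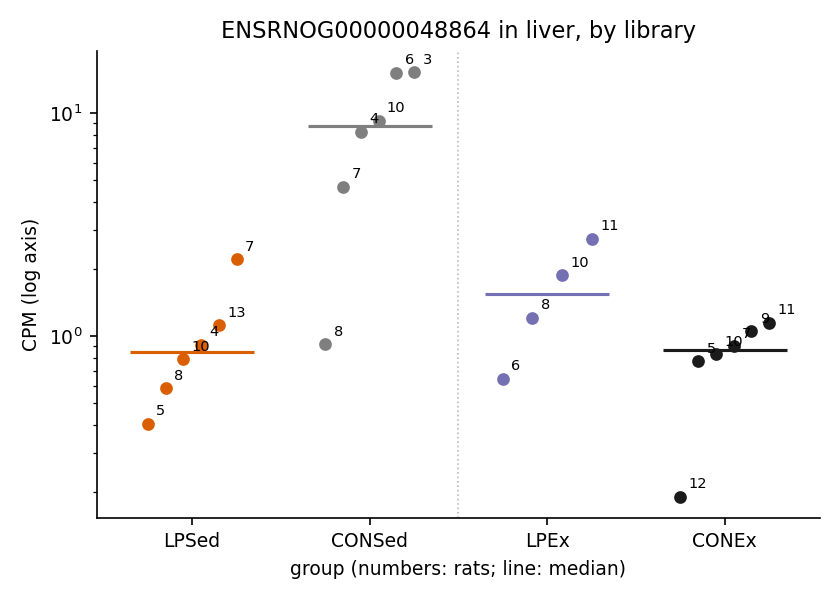
CPM of ENSRNOG00000048864 (y axis, log scale) in each of the 22 liver libraries, by group (numbers are rats, lines are group medians). The LPSed rats lay at 0.405 to 2.21 CPM, and 5 of the 6 CONSed rats lay at 4.68 to 15.3 CPM, above LPEx and CONEx.

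The call for ENSRNOG00000048864 was close to the threshold and would not pass at an FDR of 0.05. It was lost with rat number as a block, under limma voom (FDR = 0.669), with only the 2 groups in the fit (edgeR, FDR = 0.664), with all 6 liver groups in the fit, and when any of 16 of the 22 libraries was left out (log2 fold changes of -3.52 to -2.93 and FDR of 0.0018 to 0.385 over the 22 fits), whereas DESeq2 gave an FDR of 3.00e-06. Its log2 fold change kept its sign in all of these fits.

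Next to this gene, ENSRNOG00000037613 was at 20.9, 28.9, 15.9, 24.5, 20.7 and 23.5 CPM in LPSed (rats 4, 5, 7, 8, 10 and 13), against 13.2 to 17.0 CPM in CONSed (median 14.5). It was higher in 5 of 6 LPSed rats than in any CONSed rat, with LPSed rat 7 inside the CONSed range. The fitted log2 fold change was 0.61 (SE 0.13, FDR = 0.541 in the edgeR fit), and 0.14 (SE 0.14) in LPEx over CONEx. The FDR of ENSRNOG00000037613 was 0.0506 in DESeq2 and 0.0404 in edgeR without LPSed rat 7 (0.0404 to 1.00 over the fits that left out 1 library), where the fold change stayed under the 2-fold that a DEG needed. ENSRNOG00000001700 was at 4.83 to 9.66 CPM in LPSed (median 6.53), against 3.68 to 5.10 CPM in CONSed (median 4.30), and the groups overlapped at LPSed rat 10. Its log2 fold change was 0.62 (SE 0.17, FDR = 0.984 in the edgeR fit).

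Over all genes, 218 had a higher level in LPSed at an unadjusted p under 0.05 (1.6% of genes) and 247 a lower one (1.82%). The libraries of LPSed all lay above those of CONSed for 7 genes (0.0515% of genes) and all below for 4 (0.0294%). These counts are a description, as the number that chance gives was not tested. DESeq2 called 2 genes lower in LPSed, ENSRNOG00000048864 and ENSRNOG00000051002, the second chosen after its values were seen (log2 fold change of -6.19, FDR = 0.0506 in DESeq2). Of the 134 genes with a log2 fold change below -1, 52 had their highest level in CONSed rat 10, more than in any other library.

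With exercise, LPEx livers had 0 DEGs against CONEx livers (0% of genes in either direction; lowest FDR 0.418 in the edgeR fit), and 0 under DESeq2 and limma voom. However, 622 genes had a higher level in LPEx at an unadjusted p under 0.05 (4.57% of genes) and 304 a lower one (2.24%). The higher ones were raised most in LPEx rats 6 and 8. Over the 622 genes the median log2 distance from the CONEx mean was 1.03 and 1.09 in LPEx rats 6 and 8, against 0.32 and 0.25 in LPEx rats 10 and 11. CONEx rats were at -0.19 to 0.13. The genes were picked for a higher level in LPEx. LPEx rat 6 had the highest level of the exercised rats for 291 of them and LPEx rat 8 for 271. CONSed rat 10, which received neither probiotic nor exercise, was at 0.58 on the same scale, above LPEx rats 10 and 11.

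The 304 genes with a lower level in LPEx were spread more evenly, at medians of -0.48, -0.61, -0.34 and -0.26 in LPEx rats 6, 8, 10 and 11. Without LPEx rats 6 and 8 the number of genes at an unadjusted p under 0.05 was 351, against 926 with them, and 1 gene was a DEG (ENSRNOG00000018522, chosen after its values were seen, with a log2 fold change of 4.72 and an FDR of 0.00738 in edgeR). That fit kept only LPEx rats 10 and 11. Fewer libraries also lower such a count, so it cannot show which rats the genes came from. Without LPEx rat 11 there were 5 DEGs, all higher in LPEx, among them ENSRNOG00000018522 and ENSRNOG00000045772.

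**Figure D4:**
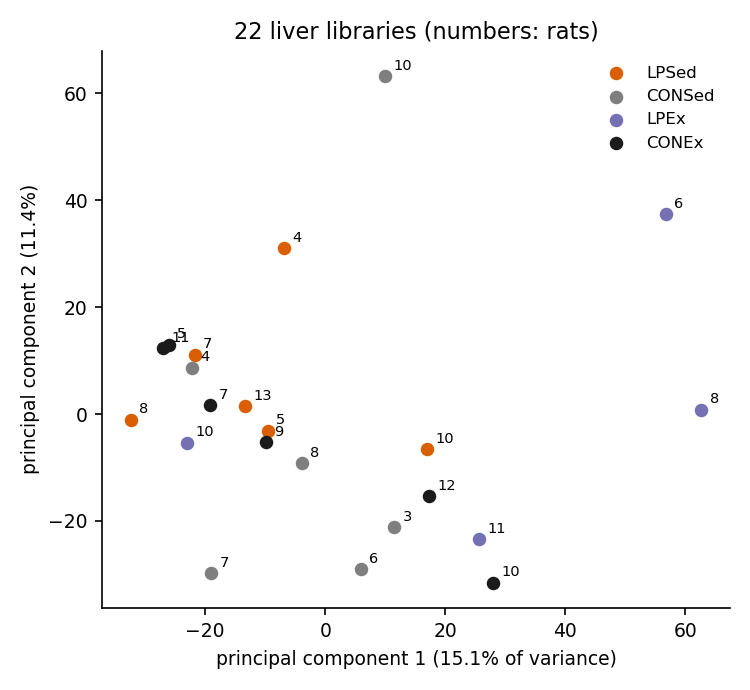
The 22 liver libraries on the first principal component (x axis, 15.1% of variance) and the second (y axis, 11.4%) of log2 CPM, coloured by group (numbers are rats). LPEx rats 6 and 8 lay farthest out on the first component, at 56.8 and 62.7, CONSed rat 10 farthest out on the second, at 63.2, and the other LP and CON libraries were mixed.

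The principal components gave the same picture of the libraries. LPEx rats 6 and 8 were at 56.8 and 62.7 on the first component, and the other 20 libraries lay between -32.4 and 27.99. LPEx rat 10 was at -23.1 and rat 11 at 25.6, so the 4 LPEx rats did not lie together. The correlation of log2 CPM across genes was as high between LP and CON libraries of the same activity (median r = 0.953 over 60 pairs) as within a group (median r = 0.956 over 51 pairs), given as a description.

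Of the 2 named genes with a higher level in LPEx, ENSRNOG00000000811 was the one in which all 4 rats took part. It was at 1.09, 1.72, 0.872 and 0.781 CPM in LPEx (rats 6, 8, 10 and 11), against 0.155, 0.322, 0.395, 0.185, 0.383 and 0.430 CPM in CONEx (rats 5, 7, 9, 10, 11 and 12), without overlap. Groups that did not overlap were found with LPEx higher for 74 genes (0.544% of genes) and with LPEx lower for 45 (0.331%). In groups this small some genes separate so by chance. How many would do so was not tested, so these counts are given as a description only. The named genes were picked for the smallest p, which favours groups without overlap. For ENSRNOG00000000811 the log2 fold change was 1.82 (SE 0.40, FDR = 0.418 in the edgeR fit), and its level in sedentary rats, 0.456 to 0.972 CPM in LPSed and 0.344 to 1.29 CPM in CONSed, overlapped between treatments.

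ENSRNOG00000045772 had the smallest p of all genes in this comparison and rested on LPEx rats 6 and 8. It was at 17.4, 2.17, 0.134 and 0 CPM in LPEx (rats 6, 8, 10 and 11), against 0 CPM in 3 CONEx rats and at most 0.144 CPM, or 3 counts, in the other CONEx rats. Its fitted log2 fold change of 6.01 (SE 1.29, FDR = 0.418 in the edgeR fit) turned to -0.13 without those 2 rats.

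Among genes with a lower level in LPEx, ENSRNOG00000027997 and ENSRNOG00000010156 had the smallest p. ENSRNOG00000027997 was at 0.248, 0.255, 1.21 and 1.51 CPM in LPEx (rats 6, 8, 10 and 11), against 1.62 to 5.31 CPM in CONEx (median 2.35), without overlap. Its log2 fold change was -1.88 (SE 0.46, FDR = 0.480 in the edgeR fit). ENSRNOG00000010156 was at 9.18, 7.21, 9.60 and 9.99 CPM in LPEx, against 10.7 to 13.3 CPM in CONEx (median 12.3), again without overlap, with a log2 fold change of -0.45 (SE 0.11, FDR = 0.531 in the edgeR fit). In sedentary rats the groups overlapped for both genes.

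The difference of the LP effect between exercised and sedentary rats passed the threshold for 0 genes (0% of genes in either direction; edgeR interaction contrast, lowest FDR 0.345), with 553 genes at an unadjusted p under 0.05 and a positive difference (4.07% of genes) and 360 with a negative one (2.65%). ENSRNOG00000048864 came first in p, with a difference of 4.14 on the log2 scale (SE 0.79, FDR = 0.345). Limma voom called 0 genes, and DESeq2 called 3, ENSRNOG00000019473, ENSRNOG00000003977 and ENSRNOG00000048864 (FDR = 0.000596 in DESeq2). The edgeR test called ENSRNOG00000048864 without CONSed rat 8 (FDR = 0.0108). The call of LPSed against CONSed is thus not shown to differ between activities in the edgeR fit of all 22 libraries.

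ENSRNOG00000003977 was at 77.1, 62.8, 54.1, 115, 43.9 and 95.6 CPM in LPSed (rats 4, 5, 7, 8, 10 and 13), against 33.8, 32.6, 20.1, 67.5, 59.8 and 16.8 CPM in CONSed (rats 3, 4, 6, 7, 8 and 10). It was at 23.7, 12.2, 24.6 and 23.2 CPM in LPEx (rats 6, 8, 10 and 11), against 31.3, 45.7, 43.6, 50.5, 77.6 and 23.2 CPM in CONEx (rats 5, 7, 9, 10, 11 and 12). Most LPSed rats were above most CONSed rats and most LPEx rats below most CONEx rats. The log2 fold change was 0.96 (SE 0.33) without exercise and -1.11 (SE 0.38) with it, and the difference of -2.07 (SE 0.50, FDR = 0.721 in edgeR) was called by DESeq2 (FDR = 0.0687).

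The other 2 named genes had fold changes of opposite sign as well. The genes named for the difference were picked for its smallest p, which favours opposite signs. ENSRNOG00000049537 was at 15.7 to 22.6 CPM in LPSed (median 21.2), against 12.4 to 17.8 CPM in CONSed (median 13.7), and at 8.42 to 18.8 CPM in LPEx (median 12.4), against 12.8 to 22.0 CPM in CONEx (median 19.6). The difference was -0.98 on the log2 scale (SE 0.26, FDR = 0.721 in edgeR). ENSRNOG00000019473 was at 0 to 0.0579 CPM in LPSed, against 0.123 to 1.33 CPM in CONSed, and at 0.794, 1.91, 1.34 and 0 CPM in LPEx (rats 6, 8, 10 and 11), against 0 to 0.692 CPM in CONEx. Its counts were at most 31 in a library, and its fitted difference was 7.01 (SE 1.45, FDR = 0.519 in edgeR).

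**Figure D5:**
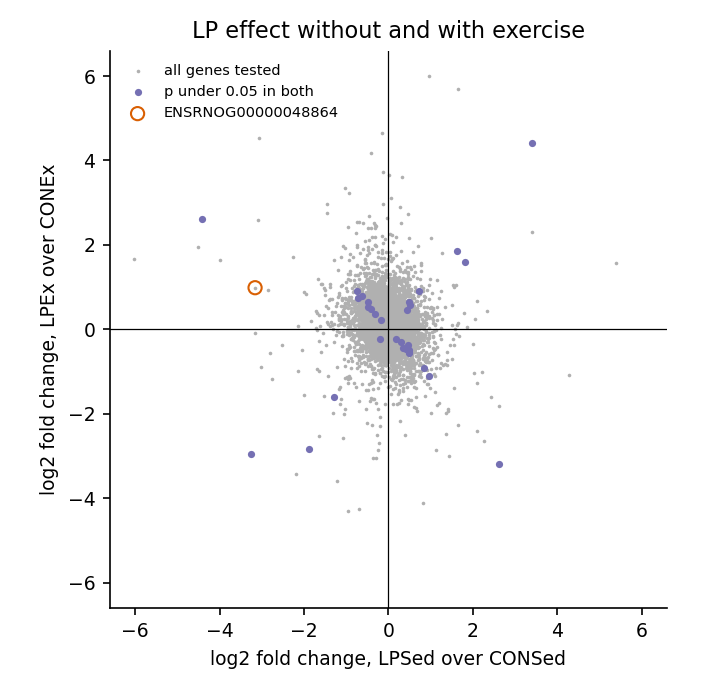
Log2 fold change of LPEx over CONEx (y axis) against that of LPSed over CONSed (x axis) for 13599 genes, with genes at an unadjusted p under 0.05 in both in purple. The cloud had no common direction (Pearson r = -0.14 across genes), and ENSRNOG00000048864 lay at -3.16 on the x axis and 0.99 on the y axis.

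Fold changes without exercise and with exercise came from different libraries and did not run together. Across the 13599 genes, which are not independent replicates, Pearson's r was -0.14 and Spearman's rho -0.15, and 45.3% of genes had the same sign. Among the 31 genes at an unadjusted p under 0.05 in both, 11 had the same sign. Over those 31 genes Pearson's r was 0.20 and Spearman's rho 0.04. The 4 genes named for LP versus CON, which were picked for the smallest p over both activities together, had the same sign in both activities, at 1.62 and 1.85 in sedentary and exercised rats for ENSRNOG00000057009, 3.41 and 4.41 for ENSRNOG00000013973, -3.25 and -2.97 for ENSRNOG00000001756, and -0.19 and -0.24 for ENSRNOG00000021881.

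Gene groups enriched in 1 tissue were used to describe broader shifts. The 391 liver-enriched genes had a median log2 fold change of -0.04 for LP over CON, against -0.00 over all genes tested. In this comparison 8 of them were higher and 4 lower at an unadjusted p under 0.05 (3.07%, against 3.58% of all genes), and 0 passed an FDR of 0.10. In LPSed over CONSed the same genes had a median of 0.00, with 3 higher and 3 lower at an unadjusted p under 0.05 (1.53%, against 3.42% of all genes). In LPEx over CONEx they had a median of -0.07, with 24 higher and 12 lower at an unadjusted p under 0.05 (9.21%, against 6.81% of all genes). Fold changes of liver-enriched genes for LP over CON lay between -0.97 and 0.94, so none reached 2-fold.

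Genes enriched in other tissues were low in liver but partly measurable. For LP over CON the median log2 fold change was 0.06 over 247 colon-enriched genes, 0.06 over 80 muscle-enriched genes and 0.12 over 330 brain-enriched genes. In LPSed over CONSed it was -0.00, 0.05 and 0.06 over the same genes, and in LPEx over CONEx it was 0.17, 0.12 and 0.20. Of the brain-enriched genes 3.03% were at an unadjusted p under 0.05 in LPSed over CONSed (6 higher and 4 lower, against 3.42% of all genes), and 11.5% in LPEx over CONEx (32 higher and 6 lower, against 6.81% of all genes). Colon-enriched genes were near this in LPEx over CONEx, at 10.9% (19 higher and 8 lower). Muscle-enriched genes were at 3.75% (3 higher and 0 lower). Brain-enriched genes took 0.200% and 0.163% of the counts in LPEx rats 6 and 8, and 0.135% and 0.146% in LPEx rats 10 and 11. They took 0.134% to 0.159% in LPSed, 0.119% to 0.168% in CONSed and 0.129% to 0.172% in CONEx. LPEx rat 8 was thus within the CON range, and LPEx rat 6 was above it. Colon-enriched genes took 0.144% to 0.180% of the counts in LPSed and 0.136% to 0.213% in CONSed, where rat 10 was the highest of the 22 libraries, and 0.147% to 0.209% in LPEx and 0.136% to 0.173% in CONEx. What part other cell types had in these values was not tested.

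Some liver genes are known by ID from the study's own comparisons, in which the Ang (1-7)-expressing probiotic took part. Of these genes, ENSRNOG00000048864 was the only one to pass here. ENSRNOG00000004419 was at 0.112 to 1.11 CPM in LPSed and 0.112 to 0.201 CPM in LPEx, against 0.0504 to 8.51 CPM in CONSed and 0.0461 to 9.90 CPM in CONEx. CONSed rat 3 and CONEx rat 7 were the only libraries above 2 CPM, and the log2 fold change of LP over CON was -2.65 (SE 0.93, FDR = 0.997 in edgeR), and -1.56 without CONSed rat 3 and -1.62 without CONEx rat 7.

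ENSRNOG00000037549 was at 0.108 to 0.618 CPM in LPSed and at 1.14, 66.8, 0.201 and 8.43 CPM in LPEx (rats 6, 8, 10 and 11), against 0 to 2.65 CPM in CONSed and 0 to 10.7 CPM in CONEx. The log2 fold change of LP over CON was 1.15 (SE 1.04, FDR = 0.997 in edgeR) and turned to -0.51 without LPEx rat 8. ENSRNOG00000009329 was at 25.3 to 57.4 CPM in LPSed and 5.61 to 24.6 CPM in LPEx, against 35.8 to 71.6 CPM in CONSed and 14.1 to 48.4 CPM in CONEx. It had a log2 fold change of -0.35 (SE 0.23, FDR = 0.997 in edgeR) for LP over CON, and -0.21 without LPEx rat 8. Both exercised groups had lower medians (22.2 CPM in LPEx and 24.5 CPM in CONEx) than both sedentary groups (45.3 CPM each).

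In the other tissues of the same groups, LP against CON with activity as a covariate gave 0 DEGs of 15488 genes in the colon, 0 of 12701 in the muscle, 0 of 15228 in the prefrontal cortex and 0 of 15718 in the hippocampus (edgeR, 24 libraries each). The percent of genes at an unadjusted p under 0.05 was 3.34, 3.31, 2.50 and 2.76 in these tissues, and 3.58 in the liver. Within each activity there were also 0 DEGs in these 4 tissues, against 1 in the liver for LPSed versus CONSed. The percent at an unadjusted p under 0.05 for LPEx versus CONEx was 4.55 in the colon, 9.79 in the muscle, 6.64 in the prefrontal cortex and 4.09 in the hippocampus, and 6.81 in the liver. For LPSed versus CONSed it was 1.95, 0.787, 2.95 and 3.51 in those tissues, and 3.42 in the liver. DESeq2 was not run in these 4 tissues.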

How the data were processed

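RNA was sequenced by Novogene from polyA-selected, non-stranded libraries. Per the labels and methods, the authors used FastQC for quality, Trim Galore with cutadapt for trimming and STAR for alignment to Rnor_5.0, and deposited the resulting gene counts as whole numbers without normalization. Tool versions are not given in the sources used here. Without strand, overlapping and antisense genes cannot be told apart, and counts of near-identical genes are uncertain.

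Groups and rat numbers came from sample titles. Members and gene lists were chosen with earlier results of these data known. Counts were filtered by edgeR 4.0.16 (R 4.3.3, filterByExpr), scaled by TMM and tested with quasi-likelihood F tests, with treatment plus activity for LP versus CON and 1 factor of 4 groups for the other contrasts. Genes at FDR < 0.10 with an absolute log2 fold change > 1 were called DEGs, as in the study. The SE was the log2 fold change divided by the square root of F. CPM used TMM-scaled library sizes. Alternatives were DESeq2 1.42.0 (the study's tool), limma 3.58.1 voom with sample quality weights, RLE scaling, no filter, a replicate block, other sets of groups, FDR < 0.05 and each library left out in turn. Thinning and leaving out LPEx rats 6 and 8 were added after seeing the data. Whole-library measures were compared by an exact permutation test over 194040 splits within activity.

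Named genes were the 2 with the smallest p per direction in each comparison and the 4 liver IDs that the study gives. In LPSed versus CONSed only the DEG was named among lower genes. The gene and cell type lists were by symbol, and 0 of 32545 IDs paired with a symbol in the reference table (GRCr8, no Ensembl IDs), so no list, sequence or genome position was used. Counts were simulated for LP versus CON over 13599 genes, of which 200 were changed, all drawn from genes with a mean above 1 CPM. On these, edgeR at FDR < 0.10 recovered 86.6% of the 2-fold changes and 98.5% of both the 4-fold and the 8-fold ones. It called 22 unchanged genes at that FDR. As DEGs it recovered 44.8%, 98.5% and 98.5%, since a 2-fold change lies on the fold threshold. No gene with a mean under 1 CPM was changed, and recovery was not split by level. The rates therefore do not show the recovery of genes under 1 CPM. For such genes in the liver libraries, the 95% interval excluded a 2-fold change in 35.4%. Whether the simulated rates hold with rats far from their group was not tested. Figures used Python 3.11.15, numpy 2.4.6 and matplotlib 3.10.9.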

Additional observations from a re-analysis of the deposited data

Results flagged for a closer look

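A sample far from the rest of its group, by Dixon's test at the 95% level, was found in 14 of 80 checks of named genes and library measures in the 4 liver groups. For normally spread values chance flags about 1 in 20. The test was run on CPM without a log scale, many of them near 0, so that rate need not hold here. The named genes were partly picked for such values. In the highest rat of the group, ENSRNOG00000013973 was at 274 CPM in LPSed rat 7, 209 CPM in LPEx rat 6 and 16.8 CPM in CONSed rat 10. In LPEx rat 6, ENSRNOG00000001756 was at 0.198 CPM, ENSRNOG00000037613 at 22.0 CPM and ENSRNOG00000045772 at 17.4 CPM. In LPEx rat 8, ENSRNOG00000037549 was highest at 66.8 CPM and ENSRNOG00000003977 lowest at 12.2 CPM. In LPSed rat 5, ENSRNOG00000001700 was at 9.66 CPM and ENSRNOG00000010156 at 12.7 CPM. In CON livers, ENSRNOG00000019473 was at 0.692 CPM in CONEx rat 10, ENSRNOG00000037549 at 10.7 CPM in CONEx rat 10, and ENSRNOG00000004419 at 8.51 CPM in CONSed rat 3 and 9.90 CPM in CONEx rat 7.

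The library labelled liver of LPEx rat 4, which was left out, had 36.5% of its counts in muscle-enriched genes, against at most 0.0762% in the CON livers. With it added, LPEx had 589 DEGs against CONEx, of which 577 were higher, against 0 without it. Of the 81 muscle-enriched genes tested, 76 were among the 577 (13.2% of the 577). For scale, 80 of the 13599 genes tested without that library were muscle-enriched.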

How the results depend on the processing

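LP versus CON had 0 DEGs under each alternative run except DESeq2, with 1. For LPSed versus CONSed the count was 1 as reported, 2 under DESeq2, and 0 under limma voom, with all 6 liver groups in the fit, with LPEx rat 4 added and with only the 2 groups compared. It would also be 0 at an FDR of 0.05, given its FDR of 0.0771. For LPEx versus CONEx it was 589 with LPEx rat 4 added and 1 without LPEx rats 6 and 8, and for the difference it was 3 under DESeq2. Leaving out 1 library at a time gave 0 to 0 DEGs for LP versus CON, 0 to 1 for LPSed versus CONSed, 0 to 5 for LPEx versus CONEx (5 without LPEx rat 11) and 0 to 1 for the difference (1 without CONSed rat 8 or CONEx rat 10). Libraries with the same rat number did not deviate together (median r = -0.07 over 16 pairs, 3 over 0.1), so the numbers were not taken as pairs. With the replicate block the count was 0 for each of the 4 comparisons, LPSed versus CONSed included, and no other call was there to lose.

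The sign turned for ENSRNOG00000021881 with LPEx rat 4 added (log2 fold change 0.052), for ENSRNOG00000037549 without LPEx rats 6 and 8 (-0.41) and without LPEx rat 8 (-0.51, over a range of -0.51 to 1.66 when 1 library was left out), and for ENSRNOG00000045772 in LPEx versus CONEx without LPEx rats 6 and 8 (-0.13). Without CONSed rat 3 the log2 fold change of ENSRNOG00000004419 was -1.56 and it was -0.56 with the replicate block, and that of ENSRNOG00000009329 was -0.21 without LPEx rat 8 and -0.11 with LPEx rat 4 added. The cause was not tested. RLE scaling moved the median of all genes by under 0.1 on the log2 scale. With 4 LPEx libraries and low counts, genes under 1 CPM were the least precise.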
